A study of Mus musculus with 8 samples.

Results

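A set of 10 genes of iron uptake, storage, export, iron sensing and heme degradation was followed across spheroids of 2 mouse mammary lines with and without fine particulate matter (PM2.5, airborne particles small enough to reach the deep lung). The 10 genes are Tfrc, Steap3, Steap4, Slc11a2, Fth1, Ftl1, Slc40a1, Ireb2, Bmp6 and Hmox1. They are 10 of 25413 genes in the deposited count table and were taken by exact match of the gene symbol. The list was selected on the PM2.5 fold changes of these same libraries, so the PM2.5 values of the 10 genes are given as a description with no p, and nothing is read from how many of them differ. The line comparisons of the 10 genes share their group values with those fold changes. Their p-values are therefore not free of the selection. All 10 passed the filter on low counts, as did 13716 genes of the table, but 2 of them passed only through the line in which they were present.

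The groups were untreated EpH4 (the label reads Control and names no vehicle), EpH4 with PM2.5, untreated EpH4-AS and EpH4-AS with PM2.5, with 2 libraries in each, 8 libraries in all. EpH4 is a mouse mammary line that the labels call wild type, and EpH4-AS is its malignantly transformed counterpart; the labels used here do not spell out AS, nor the dose, source or duration of the PM2.5. All 8 libraries came from three-dimensional culture, were made from polyadenylated RNA and carry the same batch label. Each line is a single line, so a difference between the lines is a difference between 2 cultures and not between transformed and normal cells in general. Whether both libraries of a pair derive from independent cultures is not stated, so p-values here measure only how far these libraries scatter, and that scatter may be technical.

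The libraries of the 2 lines stood apart before any iron gene was considered. Total counts were 24608176 to 27765982 in the 4 EpH4 libraries and 15393256 to 18334052 in the 4 EpH4-AS libraries. Reads of genes that fell outside exons made up 11.3% to 12.5% in EpH4 and 3.39% to 3.59% in EpH4-AS. Mitochondrially encoded transcripts took 2.21% to 2.72% of counts in untreated EpH4, 4.23% to 5.03% in EpH4 with PM2.5, and 0.219% to 0.302% in EpH4-AS. Defining epithelial markers were at or near 0 in both lines: the summed level of 9 epithelial genes was 0.400 to 0.740 counts per 1000000 (CPM) in EpH4 and 1.87 to 2.59 CPM in EpH4-AS, and Krt19 and Cldn4 had no count in any library. The summed level of 8 mesenchymal genes was 14930 to 17095 CPM in EpH4 and 6565 to 7526 CPM in EpH4-AS, so the labelled epithelial identity was not borne out by these markers. Most of that sum was Fn1 and Vim, and Vim was higher in EpH4-AS (3507 to 4707 CPM) than in EpH4 (2048 to 2390 CPM). In EpH4-AS, 7 of the 8 had group means of at least 1 CPM, all but Col1a1 (at most 0.163 CPM). The 6 erythroid markers, which would bring heme genes of their own, summed to at most 0.557 CPM. The part that depth, outside-exon reads or mitochondrial share play in the line differences below was not tested.

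Cells take up iron mainly as transferrin bound to the transferrin receptor, reduce it in the endosome with a STEAP reductase and move it into the cytosol through a divalent metal transporter. Iron not in use is held in ferritin, a shell of heavy (Fth1) and light (Ftl1) subunits, and ferroportin (Slc40a1) is the only known exporter of iron from mammalian cells. Iron regulatory proteins, among them IRP2 encoded by Ireb2, bind iron responsive elements when iron is scarce: binding in the 3′ UTR of Tfrc protects that mRNA from decay, and binding in the 5′ UTR of ferritin and ferroportin mRNAs blocks their translation. Heme oxygenase 1 (Hmox1) cleaves heme and sets its iron free, and its gene is a known target of the NRF2 and BACH1 transcription factors. Bmp6 encodes a secreted ligand that, made by liver endothelium, raises hepcidin in response to iron. RNA counts measure none of the translation steps.

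Iron responsive elements are shown for the 4 members in whose UTRs a plain pattern was found, since such elements are a route by which iron can reach an mRNA. The pattern was a bulged C, 5 bases, the loop CAGTGN and 5 bases able to pair with the first 5, G-T pairs allowed, read on the sense strand of GENCODE M21 protein-coding transcripts (GRCm38). Capitals mark the 6 bases of the loop, and each line holds 30 bases, 5′ to 3′.
Tfrc 3′ UTR, chr16:32631219-32631248, plus strand: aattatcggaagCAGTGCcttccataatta
Tfrc 3′ UTR, chr16:32631598-32631627, plus strand: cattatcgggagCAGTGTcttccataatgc
Tfrc 3′ UTR, chr16:32631663-32631692, plus strand: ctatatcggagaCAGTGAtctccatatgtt
Tfrc 3′ UTR, chr16:32631710-32631739, plus strand: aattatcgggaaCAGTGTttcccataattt
Fth1 5′ UTR, chr19:9982732-9982761, plus strand: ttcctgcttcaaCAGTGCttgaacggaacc
Ftl1 5′ UTR, chr7:45459778-45459807, minus strand: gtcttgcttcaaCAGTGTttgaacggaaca
Slc40a1 5′ UTR, chr1:45925464-45925493, minus strand: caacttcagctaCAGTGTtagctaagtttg
Tfrc held 4 such sites, and Fth1, Ftl1 and Slc40a1 held 1 each. Of 21718 coding genes with an annotated UTR, 160 (0.737%) held a match in a UTR. The other 6 members held none, which says only that these letters are not in their annotated UTRs. All 5 pairs were required, so elements with looser pairing would be missed in any member.

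With PM2.5, Tfrc was lower and Hmox1 higher in both lines, Bmp6 was lower mainly in EpH4, and Ftl1 was higher in both. Of the 10 genes, 5 were past the threshold in EpH4 (3 higher, 2 lower), where 27.2% of all genes tested were, and 4 in EpH4-AS (3 higher, 1 lower), where 11.1% of all genes tested were; since the PM2.5 results chose the list, nothing is read from these counts. The threshold is an adjusted p of 0.05 from edgeR's quasi-likelihood test, two-sided, with Benjamini-Hochberg adjustment over all genes tested.

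**Figure D1:**
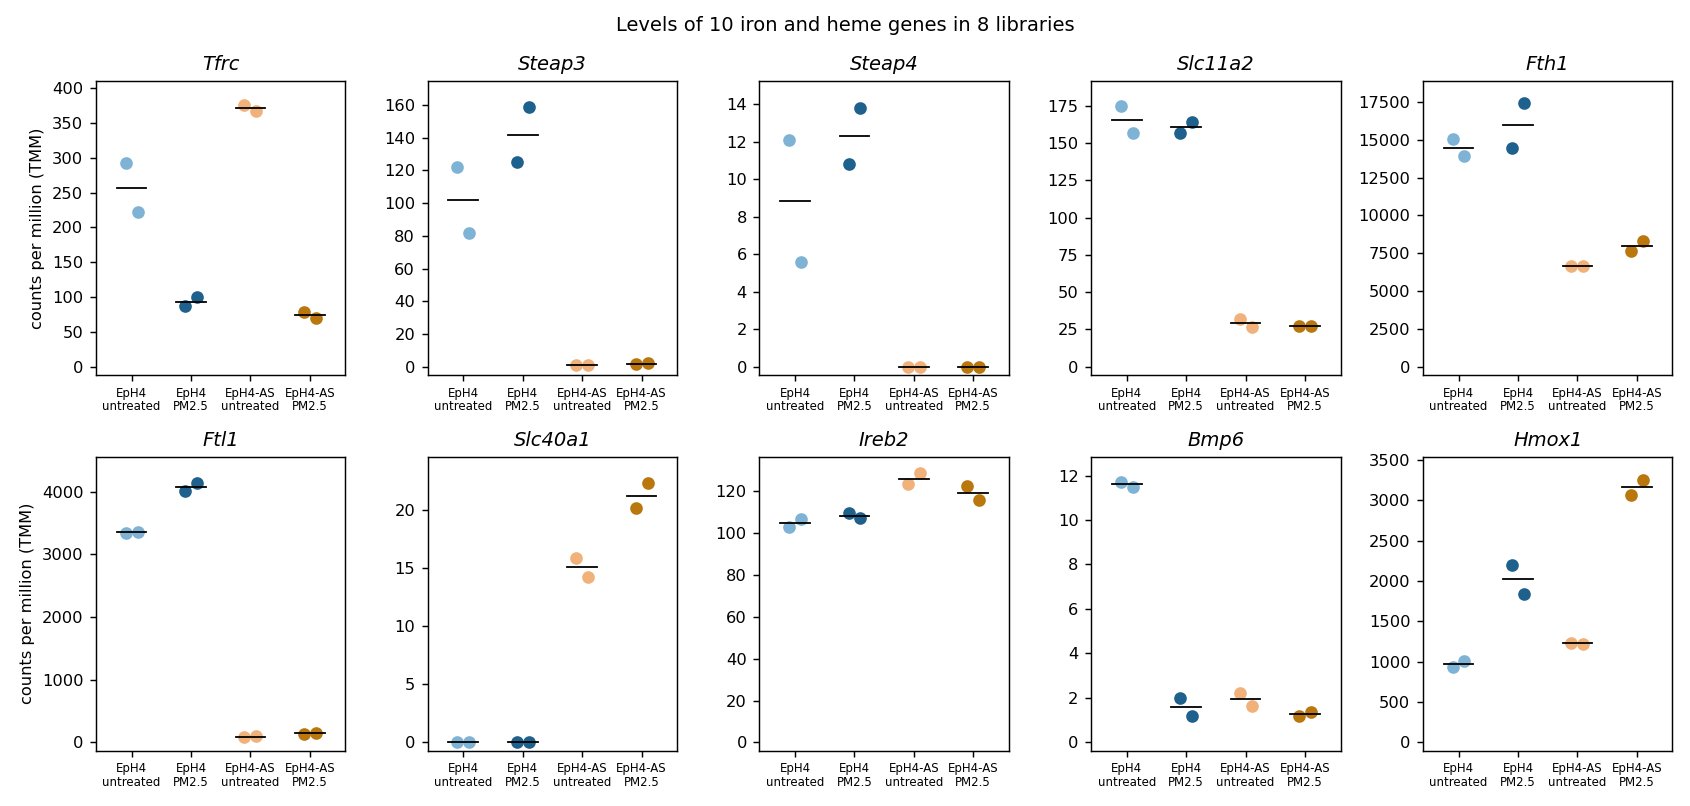
Level of each gene in counts per 1000000 (TMM-scaled; linear axes that include 0, a separate scale per gene) in the 4 groups; points are libraries and lines are group means (n = 2). Tfrc was lower and Hmox1 higher in every PM2.5 library than in every untreated library of the same line. Steap3, Steap4, Slc11a2, Fth1, Ftl1, Slc40a1 and Ireb2 separated the lines with no overlap, Ireb2 by a narrow gap.

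Tfrc, the transferrin receptor and main entry gate for iron (ENSMUSG00000022797, chr16:32427738-32451612, GRCm39), stood at 293 and 222 CPM in the untreated EpH4 libraries and at 86.8 and 99.7 CPM with PM2.5. In EpH4-AS it stood at 375 and 367 CPM untreated and at 79.0 and 70.2 CPM with PM2.5. No PM2.5 library reached an untreated one in either line, and the untreated EpH4 pair was the most scattered. The log2 fold change with PM2.5 was -1.46 ± 0.10 (SE) in EpH4 and -2.32 ± 0.11 in EpH4-AS, which leaves 0.362 and 0.201 of the untreated level. The EpH4-AS effect minus the EpH4 effect was -0.85 ± 0.15 on the log2 scale, and -1.06 to -0.67 over the 15 alternatives tried. Since the list was selected on these fold changes, differences between the 2 PM2.5 effects of a listed gene are likewise given with no test.

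For Tfrc the fitted order of the lines was opposite without and with PM2.5. That change of order is a description with no test, since Tfrc was selected on its PM2.5 fold changes. Both line differences use the same libraries, so their p-values are not free of that selection. Untreated EpH4-AS held more Tfrc than untreated EpH4 (log2 0.53 ± 0.10, edgeR adjusted p = 0.000154). With PM2.5 it held less (log2 -0.32 ± 0.11, edgeR adjusted p = 0.0127), a small difference that missed the threshold with DESeq2 (adjusted p = 0.0513), with limma on log2(RPKM + 1) (0.304), without EpH4 PM2.5 replicate 2 (0.102) and without EpH4-AS PM2.5 replicate 2 (0.124). In bulk RNA, fewer cells expressing a gene and less RNA per cell cannot be told apart, here or for any gene below.

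Steap3, the endosomal ferrireductase that works beside the transferrin receptor (ENSMUSG00000026389, chr1:120118487-120200435), separated the lines. Its levels were 122 and 82.0 CPM in untreated EpH4 and 125 and 159 CPM with PM2.5, against 1.26 and 1.33 CPM in untreated EpH4-AS and 1.40 and 2.06 CPM with PM2.5. Every EpH4 library lay far above every EpH4-AS library. The line difference was log2 -6.29 ± 0.27 untreated (edgeR adjusted p = 9.83e-12) and -6.34 ± 0.25 with PM2.5 (edgeR adjusted p = 3.13e-12), the latter resting on 24 and 38 counts in the 2 EpH4-AS libraries. With PM2.5, Steap3 was higher by log2 0.47 ± 0.14 in EpH4, where the 2 untreated libraries differed by more than the lower PM2.5 library differed from the higher untreated one.

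Steap4, a related metalloreductase at the cell surface and in endosomes (ENSMUSG00000012428, chr5:8010457-8032213), had no count in any of the 4 EpH4-AS libraries. In EpH4 it stood at 12.1 and 5.61 CPM untreated and 10.8 and 13.8 CPM with PM2.5, so the EpH4 groups overlapped. Against the 3 counts over a group that a count of 0 allows, Steap4 was at least 97.3-fold higher in EpH4 than in EpH4-AS untreated and at least 145-fold higher with PM2.5. These bounds cover counting error only.

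Slc11a2, the divalent metal transporter DMT1 that carries iron out of the endosome (ENSMUSG00000023030, chr15:100285779-100322953), differed between the lines and hardly with PM2.5. It stood at 175 and 156 CPM in untreated EpH4 and 157 and 164 CPM with PM2.5, then at 32.1 and 26.9 CPM in untreated EpH4-AS and 27.4 and 27.3 CPM with PM2.5. The PM2.5 pairs lay within the range of the untreated pairs in both lines, with log2 fold changes of -0.05 ± 0.07 and -0.11 ± 0.09. EpH4-AS was lower than EpH4 by log2 -2.49 ± 0.08 untreated (edgeR adjusted p = 3.67e-13) and -2.55 ± 0.08 with PM2.5 (edgeR adjusted p = 2.87e-13). Of the uptake route, EpH4-AS thus carried more receptor mRNA untreated and less reductase and transporter mRNA than EpH4.

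**Figure D2:**
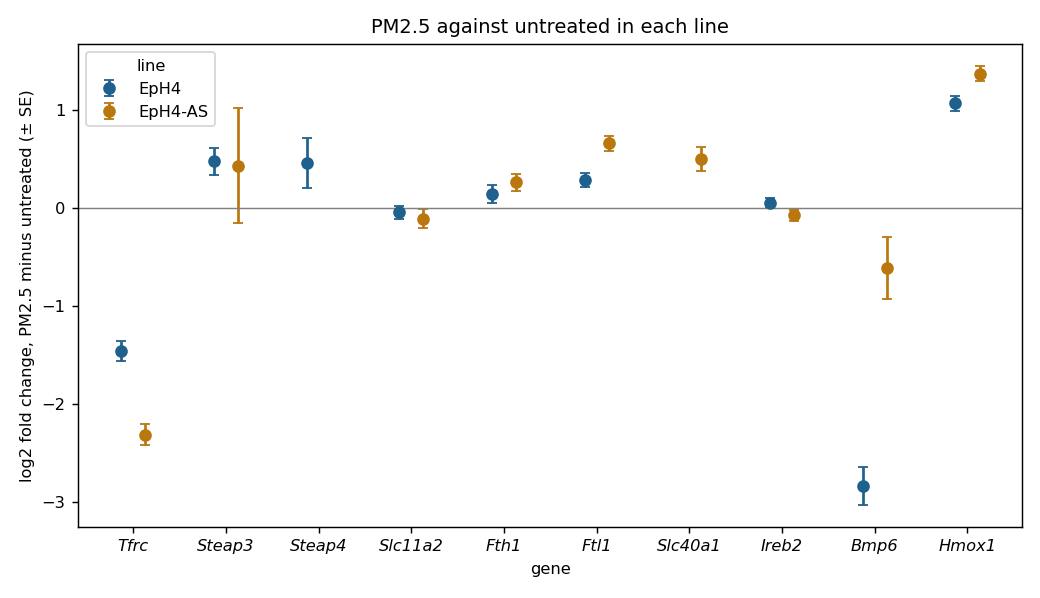
Log2 fold change of each gene, PM2.5 minus untreated, in EpH4 (blue) and EpH4-AS (orange) with standard errors from the edgeR fit to 8 libraries. Tfrc and Hmox1 lay on opposite sides of 0 in both lines, and Bmp6 lay at -2.84 in EpH4 and -0.62 in EpH4-AS; Slc40a1 in EpH4 and Steap4 in EpH4-AS have no point because they had at most 1 count.

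Fth1, the ferritin heavy chain that oxidizes iron for storage (ENSMUSG00000024661, chr19:9957962-9962462), was the most abundant of the 10 genes per length of transcript. It stood at 15061 and 13903 CPM in untreated EpH4 and at 14445 and 17446 CPM with PM2.5, with overlapping pairs and a log2 fold change of 0.14 ± 0.09. In EpH4-AS it stood at 6674 and 6690 CPM untreated and at 7679 and 8285 CPM with PM2.5, pairs that did not overlap, with a log2 fold change of 0.26 ± 0.09. EpH4-AS was lower by log2 -1.12 ± 0.09 untreated (edgeR adjusted p = 1.48e-08) and by -0.998 ± 0.09 with PM2.5 (edgeR adjusted p = 5.46e-08).

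Ftl1, the ferritin light chain that aids mineralization of the iron core (ENSMUSG00000050708, chr7:45107368-45109308), differed far more between the lines than its partner did. It stood at 3343 and 3365 CPM in untreated EpH4 and 4016 and 4138 CPM with PM2.5, against 85.6 and 98.0 CPM in untreated EpH4-AS and 137 and 152 CPM with PM2.5. In both lines each PM2.5 library lay above each untreated library. The line difference was log2 -5.19 ± 0.08 untreated (edgeR adjusted p = 5.76e-16) and -4.82 ± 0.08 with PM2.5 (edgeR adjusted p = 8.68e-16), so that EpH4-AS held 0.0274 and 0.0354 of the EpH4 level. With PM2.5, Ftl1 was higher by log2 0.28 ± 0.07 in EpH4 and 0.66 ± 0.08 in EpH4-AS. The EpH4-AS effect minus the EpH4 effect was 0.37 ± 0.10, and 0.30 to 0.49 over the alternatives.

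The balance of the ferritin subunit mRNAs therefore differed by line. On the per-length scale (RPKM, reads per 1000000, scaled to exon length), the ratio of Fth1 to Ftl1 was 2.75 and 2.53 in untreated EpH4 and 2.20 and 2.58 with PM2.5. In EpH4-AS it was 47.7 and 41.7 untreated and 34.4 and 33.2 with PM2.5. The 2 lines did not overlap, the EpH4 groups overlapped, and in EpH4-AS both PM2.5 libraries lay below both untreated ones. Together the 2 mRNAs took 1.69% to 2.13% of all counts in EpH4 and 0.686% to 0.848% in EpH4-AS. Ferritin has processed copies in the mouse genome, and how reads that fit several copies were assigned is not stated; the annotated copy Ftl1-ps1 held 4 to 252 counts per library and the Fthl17 genes at most 1, so the ferritin values are uncertain to the extent that reads were split.

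**Figure D3:**
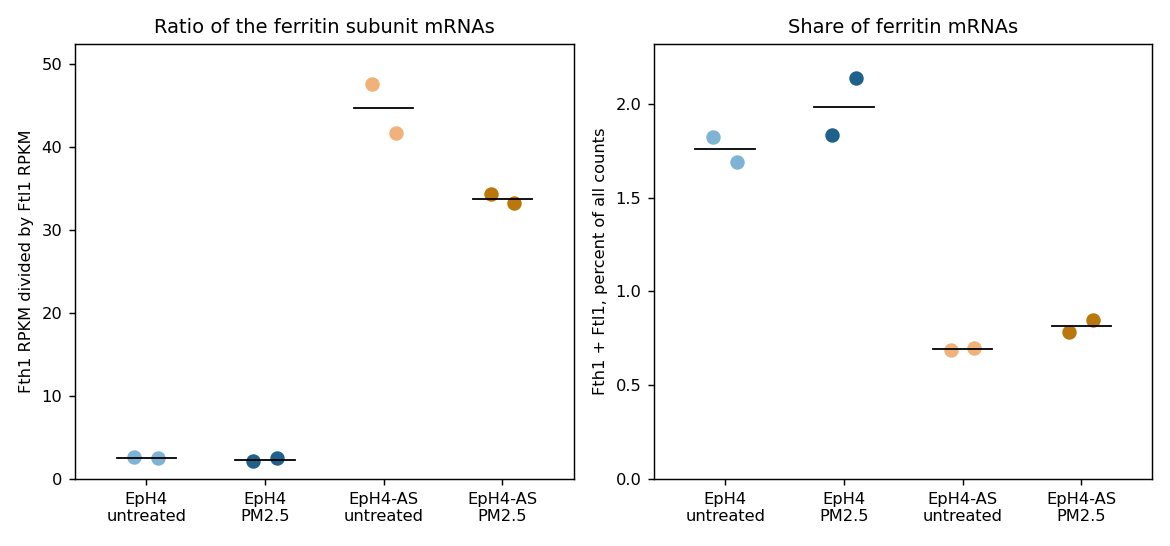
Left, ratio of Fth1 to Ftl1 RPKM per library; right, Fth1 plus Ftl1 counts as percent of all counts per library; points are libraries, lines group means (n = 2), both axes linear from 0. The ratio lay between 2.20 and 2.75 in EpH4 and between 33.2 and 47.7 in EpH4-AS.

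Slc40a1, which encodes ferroportin (ENSMUSG00000025993, chr1:45947228-45965683), was counted in EpH4-AS and almost not at all in EpH4. The EpH4 libraries held 0 and 0 counts untreated and 0 and 1 count with PM2.5. The EpH4-AS libraries held 264 and 225 counts untreated and 346 and 411 with PM2.5, or 15.9 and 14.2 CPM and 20.2 and 22.3 CPM. Untreated EpH4-AS was at least 264.7-fold higher than untreated EpH4, against 3 counts over the group (no test is read, since this gene passed the filter through EpH4-AS only). With PM2.5 the ratio of the lines was 1077, with a 95% counting interval of 193 to 42585 because the lower group held 1 count. Within EpH4-AS, PM2.5 libraries were higher than untreated ones by log2 0.50 ± 0.12, with no overlap.

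Ireb2, which encodes the iron sensor IRP2 that is degraded when iron is plentiful (ENSMUSG00000032293, chr9:54771073-54819814), varied little within a line. It ranged from 103 to 109 CPM over the 4 EpH4 libraries and from 116 to 129 CPM over the 4 EpH4-AS libraries. PM2.5 log2 fold changes were 0.05 ± 0.05 and -0.08 ± 0.05. EpH4-AS was higher by log2 0.27 ± 0.05 untreated (edgeR adjusted p = 0.000277). The difference of 0.14 ± 0.05 with PM2.5 (edgeR adjusted p = 0.0254) missed the threshold with DESeq2 (adjusted p = 0.0968), with the stricter filter (0.0604), without EpH4 PM2.5 replicate 2 (0.0996) and without EpH4-AS PM2.5 replicate 1 (0.143). Transcript levels do not report the degradation of the protein.

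Bmp6, the iron-responsive ligand (ENSMUSG00000039004, chr13:38529083-38684278), was present at a low level in untreated EpH4 and at 20 to 53 counts in every other library. The untreated EpH4 libraries held 11.7 and 11.5 CPM (322 and 289 counts), and those with PM2.5 held 2.02 and 1.19 CPM (53 and 29 counts). EpH4-AS held 2.23 and 1.64 CPM untreated and 1.17 and 1.36 CPM with PM2.5, at 20 to 37 counts per library. Only the untreated EpH4 pair stood apart from the other 6 libraries. The PM2.5 log2 fold change was -2.84 ± 0.19 in EpH4 and -0.62 ± 0.31 in EpH4-AS, and the EpH4-AS effect minus the EpH4 effect was 2.22 ± 0.39. That difference was 1.23 with limma on log2(RPKM + 1), the smallest of the alternatives, and 2.66 at most. Untreated EpH4-AS was lower than untreated EpH4 by log2 -2.58 ± 0.21 (edgeR adjusted p = 1.50e-08). That untreated EpH4 pair also entered the PM2.5 fold change on which Bmp6 was selected, so this p is not free of the selection. With PM2.5 the line difference was -0.35 ± 0.30 (edgeR adjusted p = 0.273), and it ran from 0.08 without EpH4 PM2.5 replicate 1 to -0.68 without EpH4 PM2.5 replicate 2, where it passed the threshold (adjusted p = 0.0429).

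Hmox1, the inducible heme oxygenase (ENSMUSG00000005413, chr8:75820249-75827217), held 928 and 1005 CPM in untreated EpH4 and 2196 and 1842 CPM with PM2.5. In EpH4-AS it held 1236 and 1216 CPM untreated and 3070 and 3253 CPM with PM2.5. Each PM2.5 library was above each untreated library of either line. The log2 fold change was 1.06 ± 0.08 in EpH4 and 1.37 ± 0.08 in EpH4-AS, or 2.09-fold and 2.58-fold. EpH4-AS was higher than EpH4 by log2 0.34 ± 0.08 untreated (edgeR adjusted p = 0.000759) and by 0.65 ± 0.08 with PM2.5 (edgeR adjusted p = 1.47e-06). The EpH4-AS effect minus the EpH4 effect was 0.30 ± 0.11, from 0.18 without EpH4 PM2.5 replicate 2 to 0.44 without EpH4 PM2.5 replicate 1 over the alternatives.

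Across the line comparisons, Slc40a1 and Steap4 passed the filter only through the line that held them, so their line calls were fixed by it. The other 8 genes were all past the threshold untreated (3 higher and 5 lower in EpH4-AS), and 7 of the 8 were with PM2.5 (2 higher, 5 lower). These counts stand beside 89.2% and 89.0% of all genes tested, so being called is no mark of these genes. Called and over 2-fold apart were 5 of the 8 untreated and 3 of the 8 with PM2.5, beside 55.2% and 53.9% of all genes tested, and Fth1 with PM2.5 lay just inside 2-fold. The median log2 difference of the 8 genes was -1.80 untreated and -0.68 with PM2.5, against -0.05 and -0.04 for all genes.

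The order of the genes by level changed between the lines. By mean RPKM in untreated EpH4 it ran Fth1 (7400), Ftl1 (2802), Hmox1 (509), Tfrc (40.1), Slc11a2 (21.9), Ireb2 (14.8), Steap3 (14.8), Bmp6 (2.62), Steap4 (2.33) and Slc40a1 (0). Ireb2 and Steap3 did not differ beyond the spread of their libraries, nor did Bmp6 and Steap4. In untreated EpH4-AS the order by mean RPKM was Fth1 (3912), Hmox1 (740), Ftl1 (87.9), Tfrc (66.3), Ireb2 (20.4), Slc11a2 (4.45), Slc40a1 (4.11), Bmp6 (0.500), Steap3 (0.215) and Steap4 (0), with Slc11a2 and Slc40a1 overlapping. Hmox1 mRNA thus exceeded Ftl1 mRNA in EpH4-AS and not in EpH4, on this scale.

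The authors' tables per library also give all reads of a gene, wider than exons, and their excess over exon counts was taken as reads outside exons, which can come from introns of unspliced RNA. In EpH4, the geometric mean of Tfrc exon reads with PM2.5 was 0.367 of the untreated one (reads per 1000000 gene reads). For its reads outside exons the ratio was 0.748. The libraries held 9.62 and 10.5 such reads per 1000000 gene reads untreated and 7.94 and 7.13 with PM2.5, so the pairs did not overlap for either kind of read. The log2 change in exons minus that outside was -1.03 for Tfrc, where the quartiles over 9860 genes were -0.21 and 0.08 and the median -0.07. Bmp6 was lower in both kinds of read, at 0.134 in exons and 0.278 outside, a gap of -1.05. With PM2.5 that gap rested on few reads, 53 and 29 exon counts and 51 and 40 reads outside exons. These are values of 2 libraries a group with no test.

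Hmox1 was higher in both kinds of read, at 2.09-fold in exons and 1.65-fold outside in EpH4, and 2.53-fold and 2.51-fold in EpH4-AS. Fth1 reads outside exons were 1.54-fold in EpH4 and 1.67-fold in EpH4-AS, while its exon reads were 1.10-fold and 1.17-fold. Its outside reads went from 54.7 and 51.3 reads per 1000000 gene reads to 79.0 and 84.2 in EpH4, and from 11.3 and 12.7 to 20.4 and 19.7 in EpH4-AS, with no overlap in either line. In EpH4-AS the Tfrc libraries held 13 to 19 reads outside exons, under the minimum of 20 set for this comparison. Intron reads, an unannotated exon and a longer transcript end cannot be told apart in these totals.

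**Figure D4:**
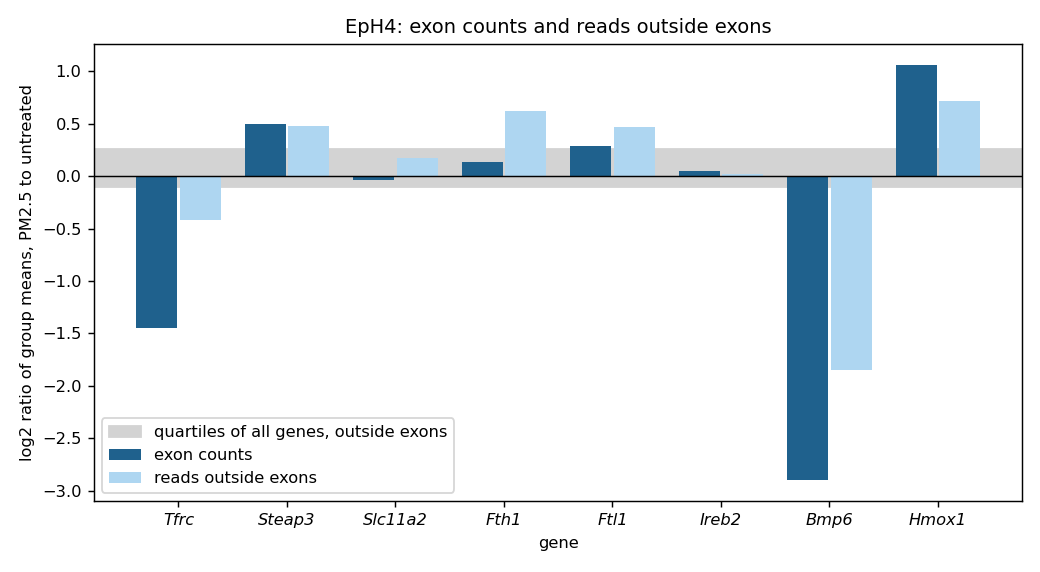
Log2 ratio of geometric group means, PM2.5 to untreated, in EpH4, for exon counts (dark) and reads outside exons (light), both as reads per 1000000 gene reads. Shown are the 8 genes with at least 20 reads of each kind in every EpH4 library. The grey band spans the quartiles of reads outside exons over 9860 genes. The exon bar of Tfrc reached -1.45 and its outside bar -0.42, and for Fth1 the outside bar was the taller.

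The wider iron and heme machinery was read from a list of 94 further genes in 10 roles, of which 83 passed the filter. The list was drawn up with earlier results of these data known, so its counts and p-values are not free of them. Apart from Hamp, genes named from it below were picked by smallest adjusted p within a role. With PM2.5, 26 of the 83 were called in EpH4 (14 higher, 12 lower; 31.3%, beside 27.2% of all genes) and 19 in EpH4-AS (12 higher, 7 lower; 22.9%, beside 11.1%). The direction in EpH4-AS depended on scaling: with library totals 8 were higher and 9 lower, and with DESeq2 size factors 9 and 8, while all genes went from 877 higher and 652 lower to 715 and 916 with library totals. The 2 sets shared 7 genes, which is 7 of 26 and 7 of 19, and 6 of these moved in the same direction, all but Nfs1, the cysteine desulfurase of iron-sulfur cluster assembly. Over all genes tested the 2 sets shared 595, of 3726 and of 1529, and 378 of the 595 moved in the same direction. The calls were fragile: 8 of the 26 and 3 of the 19 held with each of the 8 libraries left out in turn. Median log2 fold changes of the 83 were 0.04 and 0.02.

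Of the heme degradation genes, Blvrb (biliverdin reductase B) rose with PM2.5 in both lines. It went from 89.5 and 86.0 to 129 and 124 CPM in EpH4 (log2 0.52 ± 0.05, edgeR adjusted p = 1.47e-05) and from 150 and 147 to 205 and 217 CPM in EpH4-AS (log2 0.51 ± 0.05, edgeR adjusted p = 3.23e-05). The constitutive heme oxygenase Hmox2 was not called in either line (log2 0.01 ± 0.06 and 0.05 ± 0.06), nor were Blvra and the electron donor Por. Slc48a1, a transporter that moves heme out of endosomes and lysosomes, rose in EpH4 from 433 and 427 to 646 and 627 CPM (log2 0.57 ± 0.06, edgeR adjusted p = 1.61e-05). In EpH4-AS its log2 change was 0.33 ± 0.08 (edgeR adjusted p = 0.0125), a call lost without EpH4-AS untreated replicate 1 (adjusted p = 0.171), without EpH4-AS untreated replicate 2 (0.0571) and without EpH4-AS PM2.5 replicate 2 (0.162). Of the 10 heme synthesis genes tested, 0 were called higher in either line and 1 was called lower in EpH4, where 14.3% (EpH4) and 6.39% (EpH4-AS) of all genes were called higher, so that a count of 0 in 10 is near the background.

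The ferroxidases, which oxidize iron as ferroportin releases it, rose in EpH4, where Slc40a1 itself was not detected beyond 1 count. Cp (ceruloplasmin) went from 822 and 672 to 1056 and 1102 CPM (log2 0.53 ± 0.08, edgeR adjusted p = 0.000445) and Heph (hephaestin) from 34.5 and 29.8 to 44.1 and 49.9 CPM (log2 0.54 ± 0.09, edgeR adjusted p = 0.000623). Heph was also called in EpH4-AS, at 1.02 and 1.39 CPM untreated and 2.74 and 2.06 CPM with PM2.5 (log2 0.99 ± 0.29, edgeR adjusted p = 0.0440). That call was lost when any of the 4 EpH4-AS libraries was left out (adjusted p = 0.290 and 0.114 without untreated replicates 1 and 2, 0.228 and 0.0644 without PM2.5 replicates 1 and 2), with the replicate block (0.0539), with library totals (0.0516) and with limma on log2(RPKM + 1) (0.197). In EpH4-AS, Cp stood at 7.53 and 10.4 CPM untreated and 8.52 and 8.41 CPM with PM2.5. The untreated lines thus differed in opposite directions for the exporter and its ferroxidases: Cp was lower in EpH4-AS by log2 -6.39 ± 0.12 (edgeR adjusted p = 2.54e-15) and Heph by -4.74 ± 0.17 (edgeR adjusted p = 1.68e-12).

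Uptake genes outside the transferrin route differed between the lines in both directions. Lcn2 (lipocalin 2, which binds iron carried by siderophores) stood at 1957 and 1685 CPM in untreated EpH4 and 17.04 and 20.9 CPM in untreated EpH4-AS (log2 -6.59 ± 0.12, edgeR adjusted p = 1.47e-15). With PM2.5 it rose in EpH4-AS to 42.5 and 52.0 CPM (log2 1.32 ± 0.12, edgeR adjusted p = 1.30e-05) and stood at 1685 and 1766 CPM in EpH4, and the 2 effects differed by log2 1.40 ± 0.15 (edgeR adjusted p = 8.17e-05). Scara5, a receptor for ferritin, was lower in untreated EpH4-AS by log2 -3.95 ± 0.08 (edgeR adjusted p = 5.76e-15), and the metal transporter Slc39a14 by -2.24 ± 0.06 (edgeR adjusted p = 4.90e-14). Slc39a8, a transporter of the same family, ran the other way, at 75.9 and 73.2 CPM in untreated EpH4-AS and 0.0364 and 0 CPM in untreated EpH4. Of the 10 uptake genes tested, 10 were called between the untreated lines (5 higher, 5 lower), near the 89.2% of all genes.

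Of the BMP and hepcidin list, 3 of 15 tested genes were called with PM2.5 in each line (2 higher and 1 lower in each), which is 20% beside 27.2% of all genes in EpH4 and 11.1% in EpH4-AS, and 0 of these calls held with each library left out in turn. Id2, a target of BMP signalling, stood at 4.15 and 3.67 CPM in untreated EpH4-AS and 7.64 and 6.41 CPM with PM2.5 (log2 0.84 ± 0.15, edgeR adjusted p = 0.00279; 0.0506 without EpH4-AS untreated replicate 2). Hamp, the gene of hepcidin, had at most 1 count in any library and was not tested. Of 21 genes of mitochondrial iron and iron-sulfur clusters, 3 were called higher and 6 lower in EpH4, beside 14.3% and 12.9% of all genes. In EpH4-AS 1 was called higher and 3 lower, beside 6.39% and 4.75%. With each library left out in turn, 2 of these 9 calls held in EpH4 and 1 of the 4 in EpH4-AS. The iron importer of mitochondria Slc25a37 was higher with PM2.5 in both lines (log2 0.19 ± 0.05, edgeR adjusted p = 0.0135, and 0.49 ± 0.06, edgeR adjusted p = 0.000188). The EpH4 call was lost without EpH4 untreated replicate 1 (adjusted p = 0.0950) and without EpH4 PM2.5 replicate 2 (0.0581), and with only the 4 EpH4 libraries fitted (0.108).

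Between the untreated lines, 73 of the 83 genes were called (33 higher, 40 lower; 88.0%, beside 89.2% of all genes), and with PM2.5 again 73 (32 higher, 41 lower). For the difference of the PM2.5 effects 12 of the 83 were called (9 higher, 3 lower; 14.5%, beside 14.1%), where all genes went from 1042 higher and 890 lower to 838 and 1100 with library totals. These shares were near those of all genes.

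**Figure D5:**
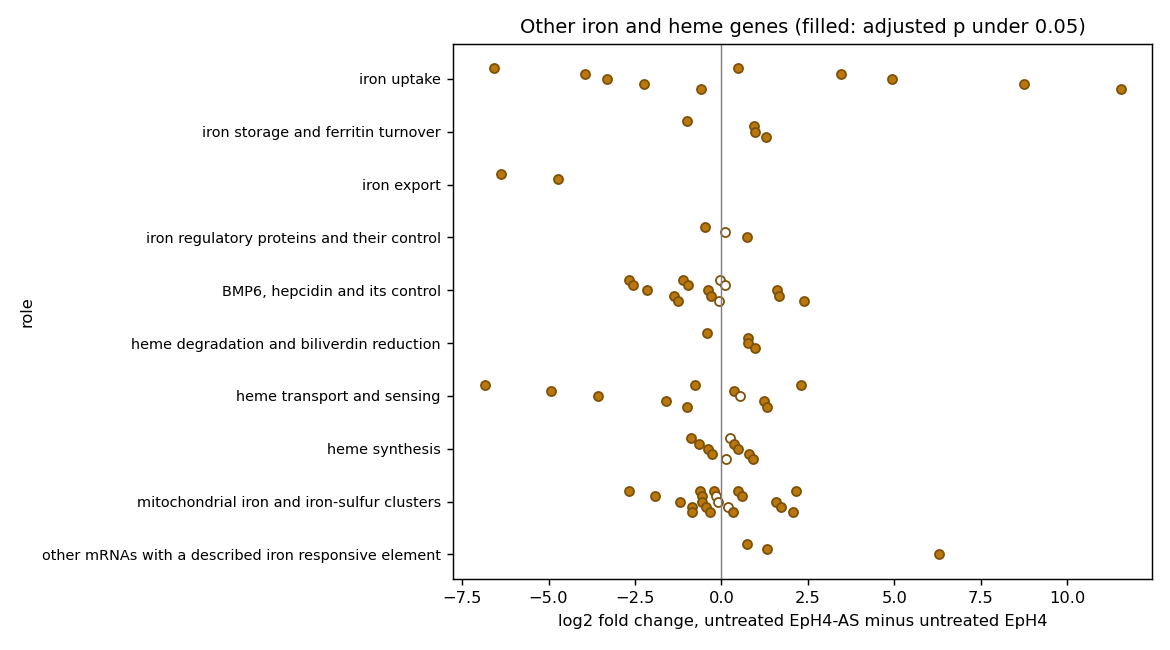
Log2 fold change of the 83 further iron and heme genes, untreated EpH4-AS minus untreated EpH4, by role; filled points had an adjusted p under 0.05 and open points did not. Most roles held genes on both sides of 0, while both tested ferroxidases lay far to the left; fitted values of genes near 0 counts in 1 line, such as Slc39a8, depend on the prior count.

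The genes whose pattern over the 8 libraries was closest to that of Tfrc, by root mean square difference of log2 CPM centred on each gene's mean, were Dok3 (0.52), Pcdhgb7 (0.60), Ptprt (0.63), Per2 (0.70) and Grin3b (0.73). Per2 stood at 32.1 to 59.1 CPM over the 8 libraries, and the other 4 at 0 to 2.09 CPM. For Hmox1 they were Fcgbp (0.24), Irf1 (0.30), Pir (0.31), Skida1 (0.35) and Gemin4 (0.37). Fcgbp stood at 0.145 to 0.977 CPM, Skida1 at 1.60 to 4.83 CPM, and Irf1, Pir and Gemin4 at 8.67 to 172 CPM. Ranking by Pearson r in place of the difference kept 0 of the 5 for Tfrc and 1 of the 5 for Hmox1 (Pir), so these names depend on the measure, and the 8 libraries share their group structure.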

How the data were processed

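Raw counts per gene were deposited by the authors for 8 libraries on GRCm39, per the submitters' processing notes, beside total gene reads and RPKM values per library that the authors made; which aligner and counter made them is not given in the sources used here. Illumina's stranded mRNA kit was used, per the labels' protocols. From the counts, 13716 genes passed edgeR's filterByExpr. They were scaled by TMM and fitted with edgeR 4.0.16 (R 4.3.3) as a quasi-likelihood model of 4 groups with 4 residual degrees of freedom. The 5 contrasts were tested, two-sided, with Benjamini-Hochberg adjustment over all genes tested and a threshold of 0.05. Log2 CPM used a prior count of 2. The standard error is the log2 fold change divided by the square root of F. RPKM values served for levels between genes and, with a pseudocount of 1, for limma 3.58.1. DESeq2 1.42.0 was an alternative.

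The members, gene lists and tests were chosen with earlier results of these data known. The 10 members were always named. Of each role of the wider list, up to 4 genes past the threshold in any contrast were eligible, by smallest adjusted p; Hamp was named outside this rule, after its values were seen. For Tfrc and Hmox1 the 5 most alike genes were taken, passing over predicted models. Marker lists covered epithelial, basal, mesenchymal, leukocyte, erythroid, adipocyte and endothelial genes. The 5 basal markers summed to 1.46 to 9.45 CPM, the 6 leukocyte markers to 38.8 to 225 CPM, and the 3 adipocyte and 3 endothelial markers to at most 0.740 CPM. Nearly all of the leukocyte sum was Cd68, at 37.5 to 219 CPM. Lyz2 held at most 4.85 CPM, and Ptprc, Adgre1, Csf1r and Itgam at most 0.991 CPM. Iron responsive element sites came from GENCODE M21 transcripts and annotation (GRCm38) by transcript, with no conversion between builds. Intervals for counts are exact Poisson at 95% and cover counting error only. The fit was checked on simulated data in which only the EpH4 PM2.5 group was changed and the lines did not differ. That check does not cover the line contrasts or the difference of the effects.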

Additional observations from a re-analysis of the deposited data

Results flagged for a closer look

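For 3 of the 10 genes the fitted PM2.5 effect was farther apart between the lines than the fit's threshold for such a difference. Over all 13716 genes tested, 1932 (14.1%) were past that threshold. The 10 genes were selected on these PM2.5 fold changes, so the values are a description and no test is read from them. The EpH4-AS effect minus the EpH4 effect was -0.85 on the log2 scale for Tfrc, lower with PM2.5 in both lines. It was 2.22 for Bmp6, where EpH4-AS held 20 to 37 counts per library in both conditions. It was 0.37 for Ftl1, higher with PM2.5 in both lines. The Ftl1 difference fell short of the threshold in some alternatives, while those of Tfrc and Bmp6 did not. Groups of 2 libraries are too small to look for single outlying libraries.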

How the results depend on the processing

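The number of libraries, 2 a group, limits every value here. Among the 10 genes, the count called for PM2.5 in EpH4 was 5, and 3 when only the 4 EpH4 libraries were fitted. Of the 83 further genes, 26 were called there, 16 with DESeq2 and 15 with only the 4 EpH4 libraries. Leaving out each library in turn gave 4 to 6 members and 12 to 26 further genes for PM2.5 in EpH4, 3 to 5 and 4 to 23 for PM2.5 in EpH4-AS, 10 and 71 to 75 between the untreated lines, 8 to 9 and 69 to 74 between the exposed lines, and 2 to 4 and 5 to 15 for the difference of the effects; a group left with 1 library is assumed to vary like the others. Nothing is read from the member counts for PM2.5 or for the difference of its effects, since those values chose the members. Member counts between the lines include Slc40a1 and Steap4, whose line calls were fixed by the filter. With all 8 libraries, 89.2% of all genes were called between the untreated lines and 89.0% between the exposed lines. Over all genes, the PM2.5 calls in EpH4 were 3726, 2330 with DESeq2 and 2145 to 3987 with a library left out; in EpH4-AS they were 1529, 2995 with only the EpH4-AS libraries and 363 to 2088 with a library left out. The difference of the effects had 1932 calls, and 875 to 2621 with a library left out.

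Some small differences changed sign when 1 library was left out, and their log2 values ran over these ranges. With PM2.5 in EpH4, Slc11a2 ran from -0.12 to 0.0356 (positive without EpH4 untreated replicate 1) and Fth1 from -0.0048 to 0.27 (negative without EpH4 PM2.5 replicate 2). With PM2.5 in EpH4-AS, Slc11a2 ran from -0.22 to 0.0422 (positive without EpH4-AS untreated replicate 1). Between the exposed lines, Bmp6 ran from -0.68 to 0.0811. For the difference of the effects, Steap3 ran from -0.36 to 0.22 (positive without EpH4 untreated or PM2.5 replicate 2, EpH4-AS untreated replicate 2 or EpH4-AS PM2.5 replicate 1), Slc11a2 from -0.17 to 0.0938 (positive without EpH4 untreated replicate 2 or EpH4-AS untreated replicate 1) and Fth1 from -0.0121 to 0.26 (negative without EpH4 PM2.5 replicate 1). The cause was not tested, and none of these differences was called with all 8 libraries.

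Whether replicate numbers pair the samples is not known. Deviations of same-numbered libraries correlated at -0.10 to 0.06, which rests on a single difference per group and cannot decide it. With a replicate block the calls were 5, 4, 10, 9 and 3 of the members and 21, 13, 73, 70 and 11 of the further genes, in the order of the contrasts above. Over all 13716 genes tested, the block gave 3258, 1252, 12151, 12118 and 1580 calls in the same order. A crossed block, chosen after seeing the data, gave 6 and 28 for PM2.5 in EpH4, and 4118 against 3258 over all genes. Fold changes of Slc40a1 and Steap4 against groups with 0 or 1 count were not recomputed.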
